A study of Mus musculus with 16 samples.

Results

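Glucose breakdown and its control by oxygen were followed through 32 genes chosen by symbol. They were enzymes of glycolysis from hexokinase to lactate dehydrogenase, glucose and lactate transporters and the kinases that switch off pyruvate dehydrogenase. The others were the enzymes that set fructose 2,6-bisphosphate, the phosphoglucomutases and 4 further genes known to be induced by low oxygen. All 32 were found among the 23100 genes counted, and all 32 had enough reads to be tested. They were taken by symbol, with no threshold on a measured value, but with earlier results of these data known. The cells were mouse embryonic fibroblasts of the C57BL/6 strain, made from E13.5 embryos and grown in medium with 10% fetal bovine serum. They were either wildtype (Zac+/+) or carried a mutation in 1 copy of Zac1 (Zac+/-, called mutant here), the gene also named Plagl1, which encodes an imprinted zinc finger transcription factor. There were 4 cell lines, 2 of each genotype, numbered replicate 1 and replicate 2, and each line was harvested at day 2 in vitro while proliferating and again at days 8, 10 and 12 as quiescent cells, so that 16 libraries were made. The titles of the mutant samples carry the code KOpat, which the labels do not expand. How many embryos made up a line is not stated there. All cells shared the strain and the culture medium, and no oxygen level or low-oxygen treatment is given in the labels.

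Glycolysis splits glucose into pyruvate through a preparatory phase, which spends ATP and ends in triose phosphates, and a payoff phase, which returns ATP and NADH. Lactate dehydrogenase turns pyruvate into lactate, whereas the pyruvate dehydrogenase complex passes it to the tricarboxylic acid cycle, and the pyruvate dehydrogenase kinases (Pdk) switch that complex off. Many of these genes are known targets of the hypoxia-inducible factors (HIF), which bind a short DNA motif when oxygen is scarce, and proliferating cells are known for high glycolytic flux also when oxygen is present.

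Libraries held 28079241 to 61039793 counted reads, and the 32 genes held 0.358% to 0.609% of it. Values are given as CPM, the count scaled to the library's size with TMM factors. Plagl1 was checked first, and was lower in mutant cells in proliferation (log2 -2.31 with SE 0.16, edgeR adjusted p = 8.50e-04) and at quiescence (log2 -1.88 with SE 0.15, adjusted p = 0.00297). The 9 fibroblast markers summed to 22560 to 24980 CPM at day 2 and 41330 to 54230 CPM later, and none was at 0. Of 7 erythroid markers 5 were at 0 throughout and the list summed to at most 0.0995 CPM. Skeletal muscle markers (136 to 281 CPM at day 2 and 38.4 to 70.3 later, with Myf5 and Ckm at 0), neuron markers (58.2 to 88.3 and then 21.3 to 57.0, with Rbfox3 at 0) and endothelial markers (14.5 to 19.7 and then 2.97 to 7.60, with Tie1 at 0) had lower sums at every later harvest than at day 2. The muscle sum is mostly Acta1 (34.6 to 280 CPM, each other marker at most 3.13 CPM). Of 6 tested muscle markers 5 were higher and 1 lower at quiescence in each genotype, with 1 called in each direction. The neuron sum is mostly Stmn2 and Tubb3 (up to 54.3 and 33.1 CPM, each other marker at most 1.85 CPM). Of 6 tested neuron markers 2 were higher and 4 lower in each genotype, with 1 called lower. Of 4 tested endothelial markers 1 was called higher in each genotype, and 2 in wildtype and 1 in mutant cells were called lower. Macrophage and blood markers ranged from 14.1 to 103 CPM at day 2 and from 13.1 to 442 later, and cartilage markers from 172 to 398 and from 98.5 to 635. Adipocyte (1.57 to 5.32 CPM) and epithelial markers (0.757 to 3.03 CPM) were low in all 16 libraries, with Lep and Esrp1 at 0. The part of these other cell types in the results was not tested.

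To show what sequence lies upstream of genes that moved in opposite directions, the 250 bases before the first listed start site are printed for 2 genes that fell at quiescence, Ldha (chr7:46845554-46845803, plus strand) and Pgk1 (chrX:106186850-106187099, plus strand), and 2 that rose, Pdk1 (chr2:71872974-71873223, plus strand) and Bnip3 (chr7:138909507-138909756, minus strand). They come from RefSeq (GRCm38.p6), not from the mm9 build of the counts, and all 32 genes were matched by gene ID. Capitals mark ACGTG or GCGTG, the core that HIF binds, on either strand (CACGT and CACGC in reverse). CACGTG reads ACGTG on both strands and is counted as 2 overlapping matches.
Ldha: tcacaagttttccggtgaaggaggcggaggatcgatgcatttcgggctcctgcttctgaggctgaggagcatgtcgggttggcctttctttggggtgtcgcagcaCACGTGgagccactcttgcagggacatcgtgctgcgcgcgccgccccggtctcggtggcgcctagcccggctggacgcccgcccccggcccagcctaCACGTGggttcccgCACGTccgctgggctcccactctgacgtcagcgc
Pgk1: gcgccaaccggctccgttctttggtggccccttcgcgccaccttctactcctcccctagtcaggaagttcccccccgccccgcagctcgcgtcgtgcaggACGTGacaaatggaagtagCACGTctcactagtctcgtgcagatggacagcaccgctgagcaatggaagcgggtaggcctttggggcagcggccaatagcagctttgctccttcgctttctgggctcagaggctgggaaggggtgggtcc
Pdk1: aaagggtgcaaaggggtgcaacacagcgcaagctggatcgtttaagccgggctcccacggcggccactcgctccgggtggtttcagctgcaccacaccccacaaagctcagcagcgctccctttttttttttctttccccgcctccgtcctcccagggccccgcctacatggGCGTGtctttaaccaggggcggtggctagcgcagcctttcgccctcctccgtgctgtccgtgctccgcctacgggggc
Bnip3: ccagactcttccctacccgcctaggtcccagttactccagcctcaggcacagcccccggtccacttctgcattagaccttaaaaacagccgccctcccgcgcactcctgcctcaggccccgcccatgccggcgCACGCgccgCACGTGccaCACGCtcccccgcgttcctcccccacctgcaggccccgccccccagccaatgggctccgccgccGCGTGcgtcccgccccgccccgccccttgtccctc
The Ldha window holds 5 matches, Pgk1 2, Pdk1 1 and Bnip3 5. Over all start sites, 39 of 47 promoters of the 32 genes held a match (83.0%), against 12679 of 32851 in the table (38.6%). Counted by gene, 29 of 32 had at least 1 promoter with the core, against 41.5% of all genes. The genes without it in this window were Gpi1, Tpi1 and Eno2. The core contains a CG pair, and the 47 promoters held a median of 13 CG pairs against 6 over the table. The core was found at 7 of the 8 genes that rose in both genotypes, 11 of the 13 that fell in both and all 11 others, so its presence did not separate the directions described next.

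Between proliferation and quiescence the 32 genes split. In wildtype cells 13 fell and 9 rose, and 10 did not pass the test (edgeR quasi-likelihood, Benjamini-Hochberg adjusted p under 0.05, day 2 against the summed counts of days 8, 10 and 12 of each line). In mutant cells 13 fell and 9 rose as well. Of all 15740 genes tested, 23.7% fell and 23.9% rose in wildtype (47.6% in all). In mutant cells 21.0% fell and 21.1% rose (42.1%). The share of the 32 that fell lay above the background and the share that rose was near it. These shares are a description, since the 32 were chosen with earlier results of these data known. The same 13 genes fell in both genotypes (Slc2a1, Hk2, Gpi1, Pfkp, Aldoa, Tpi1, Gapdh, Pgk1, Pgam1, Ldha, Pfkfb4, Egln3 and Pgm1), and 8 rose in both (Aldoc, Eno2, Ldhb, Pdk1, Pdk2, Pfkfb2, Bnip3 and Ero1l). Pfkm rose in wildtype and Slc16a1 in mutant cells. The median log2 change of the 32 was -0.13 in wildtype and -0.15 in mutant cells, against 0.05 in each for all genes tested. In these bulk samples fewer cells of a type and less RNA per cell cannot be told apart, and p-values measure the spread between lines.

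Leaving out lines changed these counts. With wildtype replicate 1 left out, 7 genes fell and 6 rose in wildtype. Without wildtype replicate 2, 11 fell and 5 rose. In mutant cells 7 fell and 6 rose without mutant replicate 2, and 9 fell and 8 rose without mutant replicate 1. A genotype left with 1 line is assumed to vary like the others. Other calls were kept in both genotypes under each of 11 other settings. Of these genes, Hk2, Gapdh, Pgk1, Pgam1, Ldha and Egln3 fell, and Eno2, Pdk1, Pdk2 and Bnip3 rose. Ldha in wildtype kept its call only narrowly, with log2 values from -0.92 to -0.54 over these settings.

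**Figure D1:**
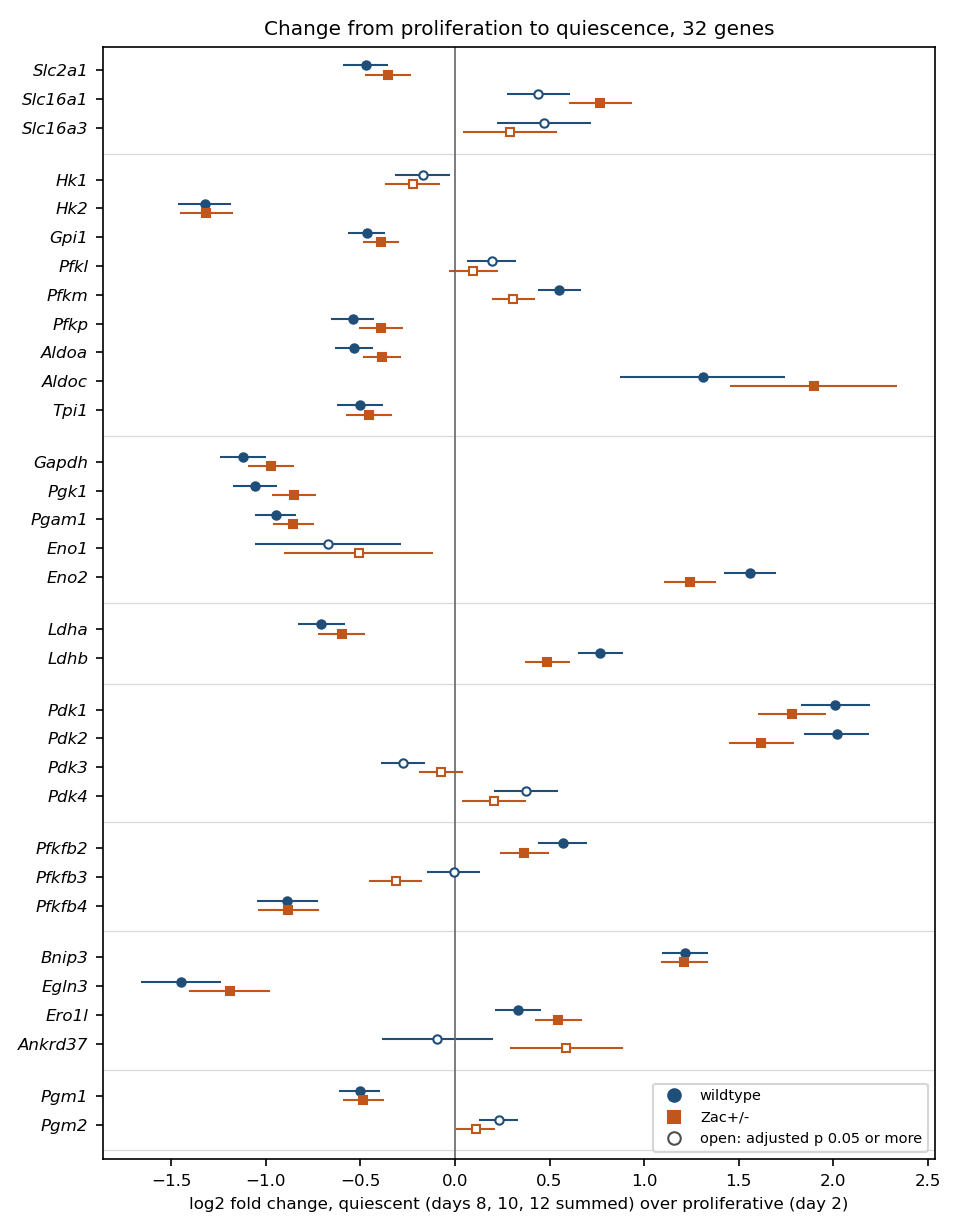
Log2 fold change from proliferation (day 2) to quiescence (days 8, 10 and 12 summed) for each of the 32 genes, with bars of 1 SE, circles for wildtype and squares for Zac+/-. Genes are grouped by role, and open symbols did not pass the edgeR test at an adjusted p of 0.05. Hk2, Gapdh, Pgk1 and Pgam1 lie left of 0, and Pdk1, Pdk2, Eno2 and Bnip3 lie right of 0 in both genotypes.

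Among the transporters, Slc2a1, the main glucose importer GLUT1, fell. Its level in wildtype replicates 1 and 2 and mutant replicates 1 and 2 was 89.4, 96.3, 89.6 and 111 CPM at day 2. Later libraries ranged from 58.1 to 90.5 CPM (median 73.1, n = 12). The ranges overlap through mutant replicate 1 at day 10. The fall was 1.39-fold in wildtype (log2 -0.47 with SE 0.12, adjusted p = 0.00915) and 1.28-fold in the mutant lines (log2 -0.35 with SE 0.12, adjusted p = 0.0383). It did not pass in wildtype with either wildtype line left out, nor in mutant cells without mutant replicate 2, with either wildtype line left out, with the cell line as a block or without day 12, with adjusted p up to 0.115 and 0.543. Slc16a1, the lactate and pyruvate carrier MCT1, stood at 38.3 to 42.6 CPM at day 2 and 45.0 to 86.4 CPM later (median 63.7). It was higher in every later library than in any day 2 library, and lowest later in wildtype replicate 1 (45.0 to 45.7 CPM). It rose 1.70-fold in the mutant lines (log2 0.77 with SE 0.17, adjusted p = 0.00467). In wildtype its log2 value was 0.44 (SE 0.17, adjusted p = 0.0514). Slc16a3, the lactate exporter MCT4, did not pass in either genotype (log2 0.47, SE 0.25, and 0.29, SE 0.25).

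Of the 9 preparatory enzymes, 5 fell in both genotypes. Hk2, the inducible hexokinase that traps glucose in the cell, fell most. Its levels at day 2 were 96.7 and 101 CPM in the wildtype lines and 113 and 104 CPM in the mutant lines. In the 12 later libraries they ran from 28.4 to 54.5 CPM with a median of 41.2. No later library reached the lowest day 2 library. The fall was 2.50-fold in wildtype (log2 -1.32 with SE 0.14, edgeR adjusted p = 5.24e-05) and 2.49-fold in the mutant lines (log2 -1.32 with SE 0.14, adjusted p = 6.84e-05). Hk1, the constitutive hexokinase, did not pass (log2 -0.17, SE 0.15, in wildtype and -0.22, SE 0.15, in mutant cells). Gpi1, which isomerises glucose 6-phosphate, fell 1.38-fold and 1.31-fold, from 425 to 433 CPM at day 2 to 277 to 347 CPM later. Aldoa, the main aldolase, fell 1.45-fold and 1.31-fold, and Tpi1, which interconverts the triose phosphates, 1.41-fold and 1.37-fold. Their ranges at day 2 and later did not overlap. The phosphofructokinase-1 subunits, which catalyse the committed step, went different ways: Pfkp fell (log2 -0.54 and -0.39, SE 0.12 each) and Pfkl did not pass (0.19 and 0.10, SE 0.13 each). Pfkm rose in wildtype (log2 0.55 with SE 0.11, adjusted p = 0.00297) and had a log2 value of 0.31 (SE 0.11, adjusted p = 0.0529) in mutant cells. The wildtype calls of Gpi1, Pfkp, Aldoa and Tpi1 were lost without wildtype replicate 1 (adjusted p up to 0.0854, 0.15, 0.0793 and 0.223), their mutant calls with either mutant line left out (up to 0.132, 0.119, 0.163 and 0.0956), and the Pfkm call with either wildtype line left out (up to 0.0709).

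Aldoc, the aldolase best known from brain, was scarce and rose. It was at 0.893 and 0.711 CPM in the wildtype lines and 1.13 and 0.637 CPM in the mutant lines at day 2. Later it ranged from 1.22 to 7.90 CPM (median 2.31), with no overlap. The highest libraries were mutant replicate 2 at day 10 (4.04 CPM) and day 12 (7.90 CPM), the same libraries in which cartilage markers summed to 612 and 635 CPM against 98.5 to 294 CPM in the other later libraries. The part of that difference in the Aldoc result was not tested. The change was 2.48-fold in wildtype (log2 1.31 with SE 0.43, adjusted p = 0.0314) and 3.72-fold in the mutant lines (log2 1.90 with SE 0.44, adjusted p = 0.00674). The mutant call was lost without mutant replicate 2 (adjusted p = 0.231), and the wildtype call with either wildtype line left out (up to 0.35) or without day 8 in the sum.

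Of the payoff enzymes followed here, Gapdh, Pgk1 and Pgam1 fell in both genotypes. Gapdh, which oxidises glyceraldehyde 3-phosphate, stood at 966 and 792 CPM in the wildtype lines and 892 and 802 CPM in the mutant lines at day 2. Later it was between 335 and 471 CPM with a median of 418. Every later library was thus well below every day 2 library. The fall was 2.2-fold in wildtype (log2 -1.12 with SE 0.12, adjusted p = 5.98e-05) and 1.96-fold in the mutant lines (log2 -0.97 with SE 0.12, adjusted p = 1.85e-04). Pgk1, the first ATP-yielding enzyme of the pathway, was at 989.6, 887, 932 and 841 CPM at day 2 in the same order of lines. It then ranged from 394 to 583 CPM with a median of 458. The groups did not overlap, and the highest later value was that of mutant replicate 2 at day 12. Pgk1 fell 2.08-fold in wildtype (log2 -1.06 with SE 0.12, adjusted p = 6.35e-05) and 1.81-fold in the mutant lines (log2 -0.85 with SE 0.12, adjusted p = 3.03e-04). Pgam1, the phosphoglycerate mutase, went from 468 to 548 CPM at day 2 to 229 to 319 CPM later, a fall of 1.93-fold and 1.81-fold (log2 -0.95, SE 0.11, and -0.85, SE 0.11).

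Of the enolases, Eno2, the form known from neurons, rose. Its level at day 2 was 9.85 and 9.41 CPM in the wildtype and 10.3 and 8.83 CPM in the mutant lines. Later libraries held 18.0 to 32.3 CPM (median 25.3). All later libraries lay above all day 2 libraries. The rise was 2.95-fold in wildtype (log2 1.56 with SE 0.14, adjusted p = 1.74e-05) and 2.36-fold in the mutant lines (log2 1.24 with SE 0.14, adjusted p = 9.27e-05). Neuron markers as a list had lower sums later than at day 2, with Rbfox3 at 0 throughout. That sum is mostly Stmn2 and Tubb3, and of 6 tested neuron markers 2 were higher and 4 lower at quiescence. The part of neurons in the Eno2 result was not tested. Eno1, the ubiquitous enolase, was given 14 to 127 reads per library (0.429 to 2.14 CPM) and did not pass (log2 -0.67, SE 0.39, and -0.51, SE 0.39). Of its 50-base stretches in the GRCm38 annotation 49.5% also occur in other genes, 48.4% in Eno1b. For Gapdh the share was 58.4%, for Pgk1 68.0%, for Bnip3 59.1% and for Pgam1 41.5%, so these genes are uncertain where the counting could not place such reads. What holds the Eno1 count this low was not tested, and its level is not read as that of the transcript.

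The 2 lactate dehydrogenase transcripts moved in opposite directions. Ldha, the muscle-type subunit that favours lactate formation, was at 1165, 1098, 1157 and 1204 CPM at day 2 in wildtype replicates 1 and 2 and mutant replicates 1 and 2. The later range was 571 to 850 CPM around a median of 749. All later values lay below all day 2 values, and the lowest were those of wildtype replicate 1 at days 10 and 12. The fall was 1.63-fold in wildtype (log2 -0.71 with SE 0.12, adjusted p = 0.00116) and 1.51-fold in the mutant lines (log2 -0.60 with SE 0.12, adjusted p = 0.00363). Ldhb, the heart-type subunit, was at 33.7, 33.0, 35.4 and 38.6 CPM at day 2. It then stood at 42.3 to 69.5 CPM (median 53.9). These ranges also did not overlap, in the other direction. Ldhb rose 1.70-fold in wildtype (log2 0.77 with SE 0.12, adjusted p = 5.41e-04) and 1.40-fold in the mutant lines (log2 0.49 with SE 0.12, adjusted p = 0.00849), the latter not without mutant replicate 1 (adjusted p = 0.0774).

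**Figure D2:**
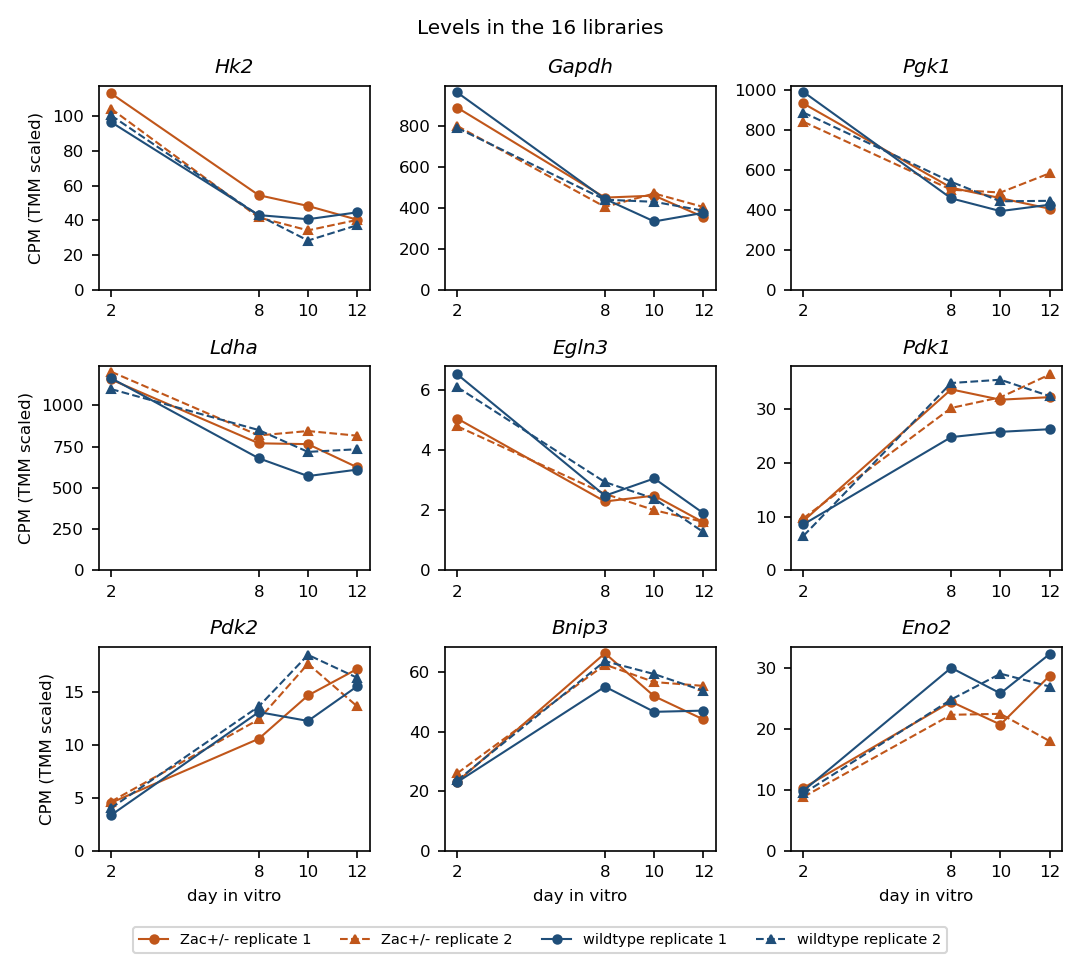
CPM (TMM scaled, linear axes from 0) of 9 genes against day in vitro, 1 line per cell line, blue for wildtype and orange for Zac+/-. Hk2, Gapdh, Pgk1, Ldha and Egln3 drop and Pdk1, Pdk2, Bnip3 and Eno2 climb between days 2 and 8 in all 4 lines, with no overlap between day 2 and the later libraries.

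The 16 enzymes from hexokinase to lactate dehydrogenase summed to 5429 to 5854 CPM at day 2 (median 5659) and 2945 to 4004 CPM later (median 3637). This sum is dominated by the abundant enzymes. Per kilobase of exon (GENCODE vM21 lengths, GRCm38), the highest of the 32 levels at day 2 were those of Ldha (median 613 CPM per kb), Gapdh (567), Pgk1 (498) and Aldoa (451), followed by Pgam1 (288), Tpi1 (280) and Gpi1 (149). Slc2a1 came next at 28.5. This order is uncertain where stretches also occur in other genes. Their share was 68.0% for Pgk1, 58.4% for Gapdh, 41.5% for Pgam1 and 24.5% for Gpi1, against 10.4% for Ldha and 8.46% for Aldoa. The sum and the order include Eno1, whose level is not read as that of the transcript. Neighbours in this order overlapped in their ranges from Ldha (580 to 635) through Gapdh (530 to 646) and Pgk1 (461 to 542) to Aldoa (437 to 473), and so did Pgam1 and Tpi1 (264 to 309 and 256 to 291).

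The largest rises among the 32 genes in wildtype were in the pyruvate dehydrogenase kinases. Pdk1, a HIF target, was at 8.54 and 6.4 CPM in the wildtype lines and 9.18 and 9.69 CPM in the mutant lines at day 2. It stood at 24.8 to 36.4 CPM later (median 32.2). Each later library held more than any day 2 library, and wildtype replicate 1 had the lowest later levels (24.8 to 26.2). Pdk1 rose 4.03-fold in wildtype (log2 2.01 with SE 0.18, adjusted p = 1.85e-05) and 3.44-fold in the mutant lines (log2 1.78 with SE 0.18, adjusted p = 4.83e-05). Pdk2, the widely expressed kinase, had day 2 levels of 3.36, 4.03, 4.53 and 4.64 CPM. Later levels were 10.6 to 18.5 CPM (median 14.2). No overlap was seen here either. The rise was 4.05-fold in wildtype (log2 2.02 with SE 0.17, adjusted p = 1.37e-05) and 3.07-fold in the mutant lines (log2 1.62 with SE 0.17, adjusted p = 6.36e-05). Pdk3 (log2 -0.27, SE 0.12, and -0.07, SE 0.12) and Pdk4, known to respond to fasting (0.37, SE 0.17, and 0.21, SE 0.17), did not pass in either genotype.

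The bifunctional enzymes that make and break fructose 2,6-bisphosphate, the activator of phosphofructokinase-1, were split. Pfkfb4 stood at 10.9 to 12.9 CPM at day 2 and 4.96 to 7.57 CPM later, without overlap. It fell 1.85-fold in wildtype (log2 -0.89 with SE 0.16, adjusted p = 0.00144) and 1.84-fold in the mutant lines (log2 -0.88 with SE 0.16, adjusted p = 0.00181), the wildtype call being lost without wildtype replicate 1 (adjusted p = 0.0524). Pfkfb2 rose 1.48-fold in wildtype (log2 0.57 with SE 0.13, adjusted p = 0.00504) and 1.29-fold in the mutant lines (log2 0.37 with SE 0.13, adjusted p = 0.0444). Its ranges overlapped (30.2 to 39.2 CPM and then 35.0 to 50.9), and the calls were lost with either wildtype line left out (adjusted p up to 0.1 in wildtype) and, in mutant cells, also without mutant replicate 2 (0.255), day 8 (0.119) or day 12 (0.112). Pfkfb3, the strongly kinase-active form, did not pass, with log2 values of -0.01 (SE 0.14) in wildtype and -0.31 (SE 0.14) in mutant cells.

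The other genes known to be induced by low oxygen did not move as one. Bnip3, a mitochondrial protein that marks mitochondria for autophagy, was at 23.1, 23.6, 23.2 and 26.0 CPM at day 2 in wildtype replicates 1 and 2 and mutant replicates 1 and 2. It ranged from 44.1 to 66.4 CPM later (median 55.3), above all day 2 values. The rise was 2.32-fold in each genotype (log2 1.22 with SE 0.12, adjusted p = 3.82e-05 in wildtype and log2 1.21 with SE 0.12, adjusted p = 5.02e-05 in mutant cells). Egln3, the prolyl hydroxylase PHD3 that marks HIF subunits for destruction, was at 6.52, 6.09, 5.05 and 4.79 CPM at day 2. Later it held 1.27 to 3.05 CPM (median 2.34). The fall left no overlap. It was 2.73-fold in wildtype (log2 -1.45 with SE 0.21, adjusted p = 3.85e-04) and 2.28-fold in the mutant lines (log2 -1.19 with SE 0.21, adjusted p = 0.00156). Ero1l, the oxidase that drives disulfide formation in the endoplasmic reticulum, rose 1.26-fold in wildtype (log2 0.33 with SE 0.12, adjusted p = 0.0483) and 1.46-fold in the mutant lines (log2 0.55 with SE 0.12, adjusted p = 0.00583). The wildtype call was lost with either wildtype line left out, with the cell line as a block (adjusted p = 0.0792), with RLE scaling (0.0515) and without day 10 (0.0737) or day 12 (0.0608), and the mutant call without mutant replicate 2 (adjusted p = 0.140). Ankrd37, a small ankyrin-repeat gene at 1.24 to 2.16 CPM, did not pass (log2 -0.09, SE 0.29, and 0.59, SE 0.30).

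Phosphoglucomutase activity links glucose 6-phosphate to glycogen. Which of the genes listed under that name serves this step in these cells was not tested. The gene listed as Pgm1 (NCBI gene 66681, named Pgm2 by RefSeq) fell 1.42-fold and 1.40-fold (log2 -0.50, SE 0.11, and -0.48, SE 0.11, adjusted p = 0.00380 and 0.00566), from 35.6 to 36.8 CPM at day 2 to 21.5 to 28.6 CPM later. These calls were lost without wildtype replicate 2 (adjusted p = 0.0900) and without mutant replicate 2 (adjusted p = 0.0789), respectively. The gene listed as Pgm2 (72157, named Pgm1 by RefSeq) did not pass (log2 0.23, SE 0.10, and 0.11, SE 0.10).

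Set per kilobase within each family, RNA levels give the isozyme makeup of each of the 16 libraries, shown as a description with no test. The shares are uncertain where stretches also occur in other genes (21.0% for Ldhb, 25.0% for Pfkfb2 and 15.4% for Pfkp). Hk2 made up a median of 40.1% of the 2 hexokinases at day 2 (36.1% to 43.9%) and 23.3% later (17.3% to 27.3%). Ldhb went from 4.23% of lactate dehydrogenase (4.04% to 4.46%) to 9.67% (8.49% to 11.1%). Among phosphofructokinase-1 subunits Pfkp went from a median of 27.1% to 18.1% and Pfkm from 29.1% to 35.6%. Pdk3 was the most abundant of the 4 kinases at both stages, but its share went from 66.6% to 46.2% while those of Pdk1 (6.03% to 16.9%) and Pdk2 (7.07% to 18.3%) were higher later. Pdk4 kept about the same share, with medians of 20.3% and 19.4%. Pfkfb2 went from 41.6% to 56.8% of its family and Pfkfb4 from 21.1% to 11.1%. Aldoa remained above 99.1% of the 2 aldolases in every library, so the rise of Aldoc hardly touched the makeup of that family.

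**Figure D3:**
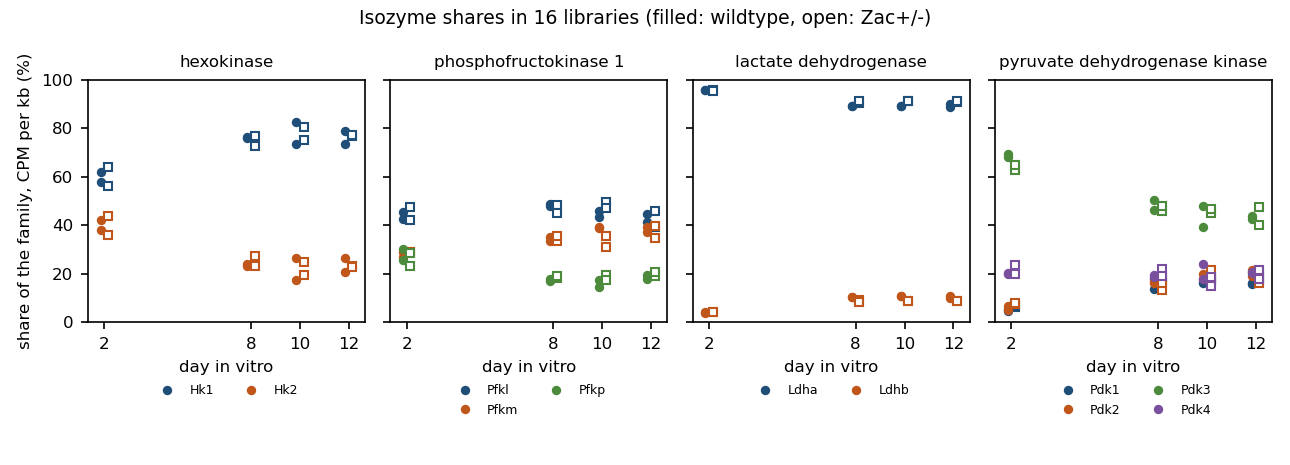
Share of each isozyme in its family (CPM per kb of exon, percent, axis from 0 to 100) against day in vitro for hexokinase, phosphofructokinase 1, lactate dehydrogenase and pyruvate dehydrogenase kinase, 1 point per library, filled for wildtype and open for Zac+/-. Hk2 is lower and Ldhb, Pdk1 and Pdk2 are higher in share at days 8 to 12 than at day 2 in both genotypes.

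The shift was in place at the first quiescent harvest. In the 16 single libraries, averaged over genotypes, 11 of the 32 genes were higher and 14 lower at day 8 than at day 2, where 28.1% and 26.4% of 15439 genes tested were called (54.5% in all). In this fit the harvests of a line are treated as independent. The largest rises were those of Pdk1 (log2 1.88 with SE 0.14, adjusted p = 1.22e-07) and Pdk2 (1.59, SE 0.15, adjusted p = 6.92e-07), and the largest fall was that of Hk2 (-1.19, SE 0.13, adjusted p = 4.68e-06). Slc16a1 (log2 0.65, SE 0.17), Pfkm (0.39, SE 0.08), Pgm2 as listed (0.23, SE 0.07) and Eno1 (-0.97, SE 0.33) passed here and not in both summed comparisons. The day 8 calls of Eno1 and Pgm2 were lost without wildtype replicate 1, wildtype replicate 2 or mutant replicate 1 (adjusted p up to 0.167 and 0.176), those of Slc2a1 and Aldoc without wildtype replicate 1 or 2 (up to 0.155 and 0.0755), and that of Tpi1 without wildtype replicate 1 or mutant replicate 2 (up to 0.107). From day 8 to day 10 none of the 32 was called (0.0648% of all genes called, 0.00648% higher and 0.0583% lower). In sign 7 were higher and 25 lower, where 51.6% of all genes were higher. An unadjusted p under 0.05 was found for 2 of the 32, against 1611 of all 15439 genes. From day 10 to day 12 again none was called (0.415% of all genes called, 0.0259% higher and 0.389% lower). In sign 13 were higher and 19 lower, where 50.1% of all genes were higher. An unadjusted p under 0.05 was found for 5 of the 32, against 1899 of all 15439 genes. DESeq2 called none of the 32 for either step. The lowest adjusted p over the 32 was 0.357 for the first of these steps and 0.187 for the second. Comparing all 4 day 2 libraries with all 12 later ones, 9 genes were higher in every later library and 12 lower, against 20.2% and 21.5% of all genes, and 11 overlapped.

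The genotypes were compared to ask whether Zac1 bears on these genes. None of the 32 passed in proliferation or at quiescence (edgeR, 0.00635% of all genes called in each, which is Plagl1 alone), and none at any single day (0.00648% each). DESeq2 called none either. In proliferation 23 of 32 were higher in mutant cells (50.4% of all genes), with a median log2 of 0.07 against 0.00 for all genes. Of the 32, 0 had an unadjusted p under 0.05, against 451 of all 15740 genes. At quiescence 23 of 32 were higher (54.8% of all genes), with a median of 0.09 against 0.01. Against 76 of all 15740 genes, 1 of the 32 had an unadjusted p under 0.05. That gene was Eno2, at 28.0 ± 1.94 CPM in wildtype and 22.4 ± 1.85 CPM in mutant cells (SD, n = 2 lines), a log2 difference of -0.32 (SE 0.13, unadjusted p = 0.0361, adjusted p = 1). The median SE of a genotype difference was 0.13 in both states. The Eno2 difference at quiescence was well above that size and did not pass. Aldoc at quiescence (log2 0.72) did not pass either, but its own SE was 0.41. The test could therefore not resolve differences of the size seen for Eno2. Macrophage and blood markers summed to 13.1 to 442 CPM in the later mutant libraries and 28.7 to 245 CPM in the later wildtype libraries, and their part in these values was not tested.

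Day 10 had the highest median genotype difference. There 24 of 32 genes were higher in mutant cells (52.2% of all genes), with a median log2 of 0.18 against 0.02 for all genes. Of the 32, 4 had an unadjusted p under 0.05, against 1507 of all 15439 genes. Slc2a1 was at 58.1 and 64.0 CPM in the wildtype and 90.5 and 83.2 CPM in the mutant lines, without overlap (log2 0.51, SE 0.12, unadjusted p = 9.97e-04, adjusted p = 0.475). Over the alternatives its adjusted p ran from 0.0988 with DESeq2 to 1. Pgam1 (log2 0.32, SE 0.11), Aldoa (0.31, SE 0.11) and Pfkp (0.31, SE 0.12) followed, each with an adjusted p of 0.475. Without wildtype replicate 1 the median over the 32 genes was 0.03 with 18 higher, and without wildtype replicate 2 it was 0.26 with 25 higher. At day 10 wildtype replicate 1 had the lowest later levels of Ldha, Gapdh, Pgk1 and Pgam1. At days 2, 8 and 12 the medians were 0.06, 0.03 and 0.03. There 0, 1 and 1 of the 32 had an unadjusted p under 0.05, against 290, 276 and 227 of all 15439 genes.

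**Figure D4:**
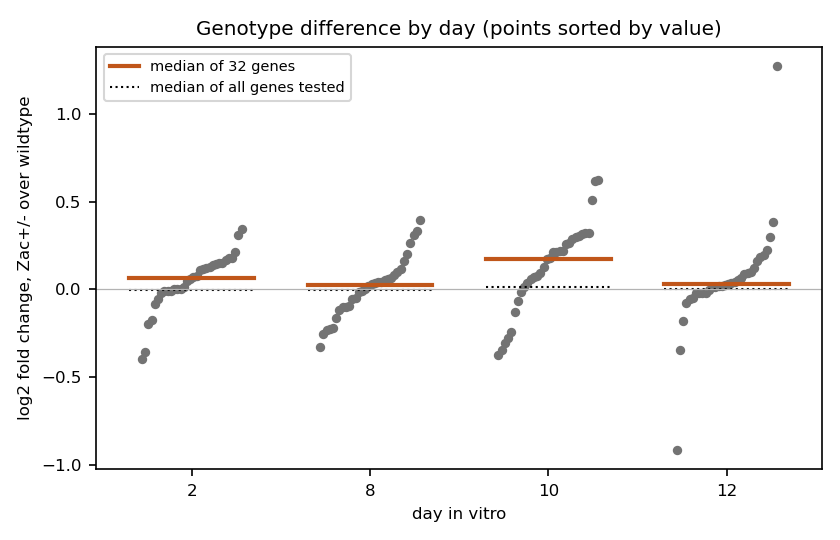
Log2 fold change of Zac+/- over wildtype for the 32 genes at days 2, 8, 10 and 12, 1 point per gene sorted by value within a day, with the median of the 32 (solid bar) and of all genes tested (dotted). No point passed the edgeR test, and the median is highest at day 10 (0.18).

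The change from proliferation to quiescence itself did not differ detectably between genotypes. None of the 32 genes passed the test of that difference (0% of all genes called), and 0 were called by DESeq2. Values lay above 0 for 19 and below 0 for 13 (52.0% of all genes above), with a median log2 of 0.03. Of the 32, 0 had an unadjusted p under 0.05, against 265 of all 15740 genes. The values ran from -0.40 (Pdk2, SE 0.24) to 0.68 (Ankrd37, SE 0.42), with SE from 0.14 to 0.61 and an adjusted p of 1 for each gene. Pfkm and Slc16a1, called in 1 genotype each, are therefore not shown to respond differently.

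Genes of the surrounding pathways were counted from lists in the same comparison in wildtype, where 23.9% of all genes rose and 23.7% fell. Some genes, such as Cited2 and Gys1, are in more than 1 list. Of 27 tested other genes of glycolysis and of glucose or lactate transport, 8 rose and 7 fell. Pkm2, the pyruvate kinase gene that completes the payoff phase, fell from 2847 ± 136 to 1282 ± 109 CPM (SD, n = 2 lines), 2.22-fold. Eno3, the muscle enolase, fell 2.97-fold from 61.1 ± 5.27 CPM. Ldhd, a D-lactate dehydrogenase, rose 8.68-fold and Pgam2, the muscle mutase, 7.66-fold, both from under 0.3 CPM. All of the pathway genes named here changed in the same direction in mutant cells and passed there. The mutant call of Pgam2 was lost with either mutant line left out (adjusted p = 0.0629 and 0.083). The Pdhx call was lost in wildtype with either wildtype line left out (0.135 and 0.0556), and in mutant cells without wildtype replicate 1, wildtype replicate 2 or mutant replicate 1, without day 10 or with the cell line as a block (0.06 to 0.421, with the block 0.074).

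Of 43 other hypoxia-responsive genes, 18 rose and 8 fell in wildtype, and 20 rose and 7 fell in mutant cells. Anln, an actin-binding protein of dividing cells, fell from 264 ± 23.8 to 54.5 ± 0.342 CPM. Vldlr, a lipoprotein receptor, rose from 18.2 ± 0.0884 to 63.8 ± 1.80 CPM, and Narf from 17.4 ± 0.467 to 50.9 ± 2.95 CPM. Of 16 regulators of the HIF pathway, 7 rose and 1 fell (5 and 1 in mutant cells). The one that fell was Cited2, an inhibitor of HIF transactivation, from 117 ± 10.9 to 46.3 ± 1.72 CPM. Arnt, the partner subunit of HIF, rose 1.76-fold, its relative Arnt2 2.39-fold and Os9 2.02-fold. Hif1a, the oxygen-regulated subunit, was looked up after the values were seen, and rose 1.68-fold in wildtype and 1.54-fold in mutant cells (log2 0.75, SE 0.11, and 0.62, SE 0.11). Vegfa, a classic HIF target encoding an angiogenic factor and chosen in the same way, did not pass (log2 0.22, SE 0.13, and 0.03, SE 0.13). Car9, another such target, which encodes a carbonic anhydrase, was at 0.0546 to 0.625 CPM at day 2 and 0.734 to 9.40 CPM later. It rose in both genotypes (edgeR adjusted p = 0.0141 in wildtype and 0.00114 in mutant cells), from only 3 to 21 reads at day 2. In wildtype replicate 1 it went from 0.625 CPM to between 0.734 and 1.80 CPM. In wildtype replicate 2 it went from 0.271 CPM to between 2.54 and 5.83 CPM. Genes looked up in this way were not followed under the other settings. Epas1, which encodes HIF-2 alpha, rose 2.19-fold in wildtype (log2 1.13, SE 0.33) and had a log2 value of 0.43 (SE 0.33) in mutant cells. Slc2a3 and Egln1, also looked up then, did not pass in either genotype (log2 0.12, SE 0.33, and 0.04, SE 0.34 for Slc2a3, and -0.21, SE 0.13, and -0.08, SE 0.13 for Egln1).

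The tricarboxylic acid cycle had 11 of 20 genes lower and 0 higher in wildtype (median log2 -0.38), and 10 lower and 0 higher in mutant cells. Idh3a, a subunit of isocitrate dehydrogenase, fell from 165 ± 21.0 to 63.8 ± 1.41 CPM, the citrate synthase gene Cs 1.79-fold, malate dehydrogenase Mdh2 1.90-fold and Dlst, a subunit of the oxoglutarate dehydrogenase complex, 1.66-fold. Around pyruvate dehydrogenase, 3 of 11 genes rose and 4 fell. Pdp1, a phosphatase that reverses the action of the Pdk enzymes, rose from 14.2 ± 0.691 to 84.7 ± 35.9 CPM and Pcx, pyruvate carboxylase, from 11.7 ± 1.30 to 51.4 ± 5.81 CPM. Dlat and Pdhx, which build the complex, fell 1.56-fold and 1.45-fold.

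In the pentose phosphate pathway 6 of 11 genes fell and 1 rose in wildtype (6 and 0 in mutant cells, median log2 -0.63 and -0.65). Prps1, which makes the ribose donor of nucleotides, fell 2.57-fold, Pgd 2.24-fold, the transketolase gene Tkt 2.1-fold and the transaldolase gene Taldo1 2.04-fold. Glycogen metabolism went the other way, with 11 of 21 genes higher and 2 lower (12 and 3 in mutant cells, median log2 0.73 and 0.72). Ppp1r3c, which targets protein phosphatase 1 to glycogen, went from 0.312 ± 0.152 to 20.7 ± 4.70 CPM. Phkb, a phosphorylase kinase subunit, rose 2.35-fold, the lysosomal glucosidase gene Gaa 2.32-fold and the glycogen phosphorylase gene Pygb 2.00-fold.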

How the data were processed

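RNA from 16 fibroblast libraries was sequenced. The values deposited by the authors are raw counts, whole numbers for each gene with no scaling applied. The submitters' processing notes name HTSeq 0.6.1p1, TopHat2 2.1.1, Bowtie2 2.2.9, bcl2fastq 2.18 and build mm9. Libraries were stranded per the labels' protocols. The gene annotation and strand option of this step are not given in the sources used here, and overlapping and near-identical genes are uncertain. No row lacked a gene name.

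From these counts CPM were computed with TMM scaling. The 3 later harvests of each line were summed, giving 8 libraries in 4 groups, with 15740 genes after filterByExpr and 4 residual degrees of freedom. Days were compared over the 16 libraries in 8 groups, with 15439 genes and 8 residual degrees of freedom. Tests were quasi-likelihood tests of edgeR 4.0.16 in R 4.3.3, robust and without a block, with Benjamini-Hochberg adjustment over all genes and calls under 0.05. SE is the size of the log2 value divided by the root of its F. With 2 lines against 2, an exact permutation test cannot give a two-sided p under 0.333. On simulated counts for state in wildtype (15467 genes), 100 genes were changed by log2 1 and 100 by log2 2. Of these 92% and 99% were recovered, with 5.45% false among called. In the data 7486 of 15740 genes (47.6%) were called for this comparison, far more than were changed in the simulation. The simulated rates are therefore not read as those of the calls reported here. The genotype comparisons were not simulated.

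A line was harvested in every state, so lines pair states by design: deviations correlated with r 0.196 (wildtype) and 0.248 (mutant) across states. Same-numbered lines of the 2 genotypes gave r -0.0285 and 0.0112 and were not paired. Alternatives were RLE scaling, DESeq2 1.42.0, no filter on low counts, a replicate block, and leaving out each line or later day. The members and lists were chosen with earlier results of these data known. The genes named are Plagl1, the 32 members and, of each pathway list, up to 4 with the smallest p in wildtype; 1 gene that met this rule is not reported here. Exon lengths and shared 50-base stretches came from GRCm38.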

Additional observations from a re-analysis of the deposited data

How the results depend on the processing

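Leaving out each line in turn gave 5 to 10 genes called higher and 7 to 13 called lower for the change of state in wildtype, and 7 to 12 called lower in mutant cells. The lowest counts came without wildtype replicate 2 (5 higher), wildtype replicate 1 (7 lower) and mutant replicate 2 (7 lower), where fewer lines remained. The other alternatives kept every count of called genes within 1.5 times in each comparison, and no setting called any of the 32 genes for genotype or for genotype by state. Values that changed sign were those of genes without a call. Pfkfb3 in wildtype (-0.01) went to 0.0055 with no filter on low counts, 0.00717 without day 12 in the sum, and from -0.15 to 0.0855 on leaving out lines. Leaving out lines gave -0.27 to 0.0702 for Ankrd37 in wildtype and, in mutant cells, -0.0328 to 0.52 for Slc16a3, -0.44 to 0.0023 for Hk1, -0.18 to 0.38 for Pfkl and -0.0208 to 0.23 for Pgm2. The cause was not tested. With the replicate block (the cell line for states and days, the replicate number for genotype) 9 genes were called higher and 13 lower in wildtype and 9 and 12 in mutant cells. Beyond Ero1l, given above, the block added Slc16a1 in wildtype (adjusted p = 0.0399), ended the mutant call of Slc2a1 (0.0637) and added Slc16a3 at day 8 (0.0067). It changed no other call of the 32 genes. DESeq2 also called Slc16a1 in wildtype (0.0388), Pfkm in mutant cells (0.0489) and Slc16a3 at day 8 (0.0447). With 2 lines per genotype and a median SE of 0.13, small genotype differences could not be resolved. Differences well above that SE, such as that of Eno2 at quiescence (log2 -0.32), did not pass either.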
